A study of Homo sapiens with 38 samples.

Results

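Transcripts of NF-kB and of the proteins that hold it back were followed in HCT116 cells after silencing of the paralogous ESCRT ATPases VPS4A and VPS4B. The set held 10 genes chosen by symbol, of 12627 genes measured: the subunit genes NFKB1, NFKB2, RELA, RELB and REL, the IkB genes NFKBIA, NFKBIB and NFKBIE, TNFAIP3, which encodes the feedback inhibitor A20, and IRAK2, a signaling component of the interleukin-1 and Toll-like receptor pathway. All 10 were found. HCT116 is an established human colorectal cancer cell line, and every group came from this one line. RNA was collected 72 h after transfection and sequenced as amplicons of a transcriptome panel, and levels are given as TMM-normalized reads per 1000000. Because each gene is read through its own amplicon, levels were compared between conditions and not between genes.

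Non-transfected cells (NT) and cells given 60 nM of the non-targeting duplex siCTRL#1 were the reference groups, and siCTRL#2 was a further non-targeting duplex whose dose the labels do not give. For single silencing, 30 nM of siVPS4A#1, siVPS4A#2, siVPS4B#1 or siVPS4B#2 was brought to the same total with 30 nM of siCTRL#1. For combined silencing, 30 nM of each of a pair of on-target duplexes was used: siVPS4A#2 with siVPS4B#1 in the condition siVPS4A+B#1, and siVPS4A#1 with siVPS4B#2 in siVPS4A+B#2. Each condition had 4 libraries in use and siCTRL#1 had 5, in all 37 libraries, which the labels describe as biological replicates in lettered batches. The 37 libraries held 5090666 to 11035293 reads. The remaining library, labelled siVPS4A#1 replicate 2, had 669257 reads and was left out because it goes against its label, with 1 VPS4B read although VPS4A alone was named as the target. Of the 10 genes, 9 were higher in it than in any NT, siCTRL#1 or siCTRL#2 library, and calls that changed when it was included in the siVPS4A#1 group are given with it.

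NF-kB is a family of dimeric transcription factors built from subunits that share a Rel homology domain. In resting cells the dimers are kept inactive in the cytoplasm by IkB proteins or by the unprocessed precursors encoded by NFKB1 and NFKB2, until receptor signaling removes the inhibitor. In the canonical pathway the IKK complex marks IkB for degradation and releases dimers with RELA or REL, whereas in the non-canonical pathway the kinase NIK, encoded by MAP3K14, promotes processing of the NFKB2 precursor to a partner of RELB. Several genes of the pathway are themselves known NF-kB targets, among them NFKBIA, NFKBIE, TNFAIP3, NFKB1, NFKB2, RELB and REL, so their transcripts are widely used as readouts of the pathway.

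Promoter sequence is shown for 4 members with matches to the kappaB consensus, the decamer recognized by NF-kB dimers, because genes of this set are known targets of the factor they encode or restrain. In the RefSeq promoter table (GRCh38.p14), 8 of the 10 genes had an entry, with 13 start sites in all, and RELB and NFKBIE had none. The 250 bases before each start were searched on both strands, overlapping matches were allowed, and the windows were placed on GRCh37, the build used for the alignment, by their only exact match. Of the 8 genes, 6 held at least 1 match in at least 1 window: NFKB1, NFKB2, REL, NFKBIA, NFKBIB and TNFAIP3. RELA and IRAK2 held none in these windows. Among all 10206 measured genes with an entry, 15.9% held a match in at least 1 window, and 9.96% of all 35116 windows of the table held one. Sequences run 5′ to 3′ on the strand of the gene, and capitals mark the bases of the matches.
NFKB1, chr4:103422266-103422486, plus strand, upstream of the annotated gene: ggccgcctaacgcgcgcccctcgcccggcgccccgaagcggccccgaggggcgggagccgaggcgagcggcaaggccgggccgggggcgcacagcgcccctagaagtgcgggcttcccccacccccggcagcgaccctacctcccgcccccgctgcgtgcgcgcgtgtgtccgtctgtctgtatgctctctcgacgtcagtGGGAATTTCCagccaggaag
NFKBIA, chr14:35873956-35874205, minus strand, upstream of the annotated gene: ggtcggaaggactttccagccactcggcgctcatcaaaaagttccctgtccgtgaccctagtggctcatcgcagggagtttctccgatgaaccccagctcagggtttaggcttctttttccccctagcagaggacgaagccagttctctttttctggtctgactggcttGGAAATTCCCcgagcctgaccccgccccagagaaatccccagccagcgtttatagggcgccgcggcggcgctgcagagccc
TNFAIP3, chr6:138188146-138188350, plus strand, upstream of the annotated gene: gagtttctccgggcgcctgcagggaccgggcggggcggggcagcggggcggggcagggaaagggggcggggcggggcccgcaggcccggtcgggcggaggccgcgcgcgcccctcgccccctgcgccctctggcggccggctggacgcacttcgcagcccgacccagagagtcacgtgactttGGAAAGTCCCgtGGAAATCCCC
NFKB2, chr10:104154218-104154247, plus strand, exonic in at least 1 annotated transcript: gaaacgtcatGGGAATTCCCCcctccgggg
NFKB2, chr10:104154247-104154276, plus strand, exonic in at least 1 annotated transcript: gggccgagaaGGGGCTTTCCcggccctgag
NFKB2, chr10:104155276-104155305, plus strand, intronic: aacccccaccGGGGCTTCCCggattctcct
NFKB2, chr10:104155431-104155460, plus strand, exonic in at least 1 annotated transcript: tggtattttcGGGACTTTCCtaagctgctc

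The NFKBIA window held 1 match, ending 72 bases before the start, and the TNFAIP3 window held a pair of matches separated by a short gap, the nearer of which ended 46 bases before the start. NFKB2 has several annotated starts, and its matches preceded the second and the third of them. In NFKB1 the match ended 40 bases before the more upstream start. These matches describe the letters of the reference sequence, and occupancy was not measured.

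The check of the silenced genes came first. The mean level of VPS4A was 248 ± 55 reads per 1000000 in NT libraries (SD, n = 4) and 190 ± 14 with siCTRL#1 (SD, n = 5). It ranged from 1.63 to 3.52 with siVPS4A#1, 5.89 to 10.5 with siVPS4A#2, 10.6 to 33.9 with siVPS4A+B#1 and 3.04 to 7.68 with siVPS4A+B#2. VPS4B had 20.7 ± 3.54 (SD, n = 5) with siCTRL#1 and at most 1.57 reads per 1000000 in the 16 libraries given a VPS4B duplex. VPS4A was less deeply reduced in siVPS4A+B#1 than in siVPS4A+B#2, with a log2 difference between the pairs of -1.72 (SE 0.23, adjusted p = 1.58e-07) in limma with Benjamini-Hochberg adjustment over all genes. It was also less deeply reduced in each pair than with the VPS4A duplex of that pair alone. In limma siVPS4A+B#1 lay 1.13 above siVPS4A#2 (SE 0.23, adjusted p = 0.000107) and siVPS4A+B#2 0.87 above siVPS4A#1 (SE 0.24, adjusted p = 0.00527). What this difference in silencing adds to the results was not tested. Epithelial markers were present in all libraries: 5 of 7 listed were measured, with a summed level of 4331 to 8167. Of 7 markers of other cell types, 3 were measured, and PECAM1 stayed at or under 1.75 reads per 1000000. CD68, a macrophage marker that is also a lysosomal membrane protein, ranged from 4.98 to 7.09 in NT, from 5.29 to 10.3 in siCTRL#1, from 90.4 to 176 in siVPS4A+B#1 and from 40.5 to 95.3 in siVPS4A+B#2, while the fibroblast gene COL1A1 ranged from 7.83 to 14.4 in NT, from 15.6 to 31.4 in siCTRL#1, from 22.9 to 41.1 in siVPS4A+B#1 and from 51.4 to 85.2 in siVPS4A+B#2. Summed, the 3 ranged from 13.5 to 21.6 in NT, 131.7 to 199.3 in siVPS4A+B#1 and 97.6 to 146.8 in siVPS4A+B#2. Their part in the results was not tested. In bulk RNA, fewer cells of a type and less RNA per cell cannot be told apart.

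Combined silencing raised 6 of the 10 genes in all 4 comparisons of the pairs with NT and siCTRL#1, and lowered none. The 6 were RELB, IRAK2, NFKBIA, NFKB2, TNFAIP3 and NFKBIE. Calls required a change of 1.5-fold or more together with an adjusted p under 0.05 in limma. By the same rule 3.96% of all genes were higher in all 4 comparisons. The members were chosen with earlier results of these data known, so this share and those given below describe the set and do not test it. Lower in all 4 were 525 of the 12627 genes, and none among 10 members is near that share. Averaged over the 4 comparisons, the log2 difference was 2.60 for RELB, 2.12 for IRAK2, 1.88 for NFKBIA, 1.86 for NFKB2, 1.65 for TNFAIP3 and 1.34 for NFKBIE. The other members, NFKB1, RELA, REL and NFKBIB, were each called higher in 2 of the 4 comparisons, with mean log2 differences of 0.51 to 0.69.

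Comparison by comparison, siVPS4A+B#1 raised 8 members against NT, where 12.6% of all genes were higher, and 9 against siCTRL#1, where 10.6% were. The second pair, siVPS4A+B#2, raised 7 members against NT, beside 13.2% of all genes, and 8 against siCTRL#1, beside 12.8%. No member was lowered in any of these. Of all 12627 genes, siVPS4A+B#1 lowered 1683 against NT and 1452 against siCTRL#1, and siVPS4A+B#2 lowered 1978 and 2012. Within batches the pairs lay above NT and siCTRL#1 in 4 of 4 batches for each member, except RELA in siVPS4A+B#2 against siCTRL#1 and NFKBIB in siVPS4A+B#2 against NT, which did so in 3 of 4. Batch counts were not made for genes outside the set. The comparisons share their NT and siCTRL#1 libraries, so their results are not independent of one another. Nor were the members chosen independently of these data.

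**Figure D1:**
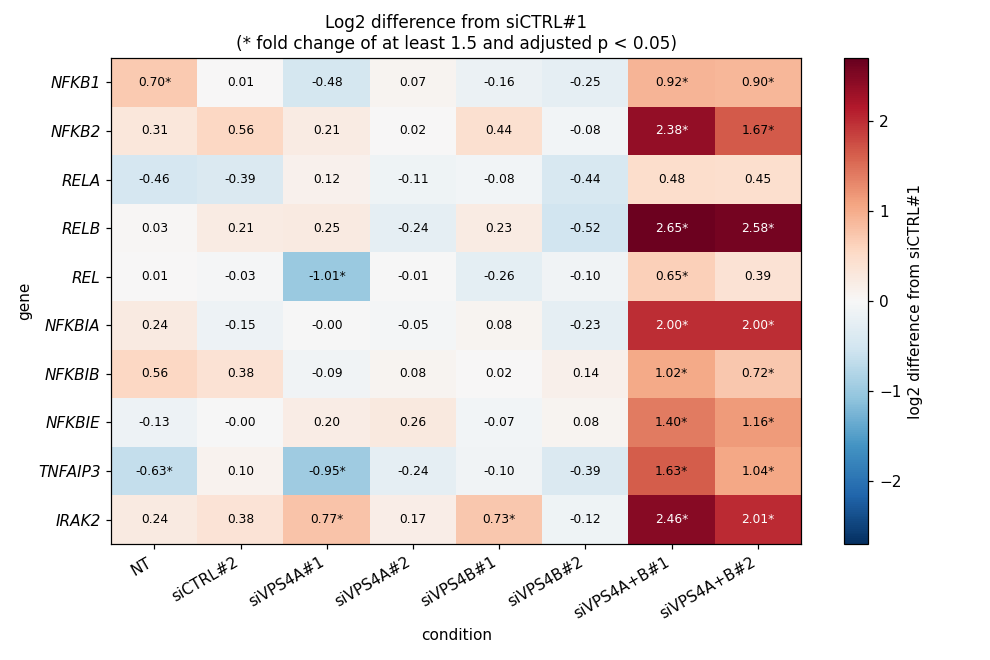
Log2 difference of each of the 10 genes (rows) from siCTRL#1 in the other 8 conditions (columns), on the scale of log2(reads per 1000000 + 1), with an asterisk where the gene was called. The deepest colors lie in the columns of combined silencing, led by RELB at 2.65 and 2.58, and REL is lower with siVPS4A#1, at -1.01.

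RELB, the subunit that pairs with the processed NFKB2 product in the non-canonical pathway, showed the largest rise of the subunits. The gene (NM_006509) lies on chromosome 19 from 45504719 to 45541450, plus strand, of GRCh37. It had 118, 92.9, 132 and 149 reads per 1000000 in the 4 siVPS4A+B#1 libraries and 122, 127, 118 and 97.4 in those of siVPS4A+B#2. NT libraries had 23.1, 17.6, 16.9 and 18.4, and siCTRL#1 libraries 16.7, 16.4, 22.9, 19.4 and 14.7. Every combined-silencing library was above every other library, of which the highest, at 27.3, was a siVPS4A#1 library. Against siCTRL#1 the log2 difference was 2.65 (SE 0.15, adjusted p = 3.91e-17) with the first pair and 2.58 (SE 0.15, adjusted p = 9.11e-17) with the second in limma. The pairs were close to each other, with a log2 difference of -0.07 and an SE of 0.16.

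NFKB2 (NM_001077494; chromosome 10 from 104153867 to 104162281, plus strand) encodes the precursor that both restrains RELB and yields its partner. Its level was 731, 640.3, 801 and 1183 reads per 1000000 with siVPS4A+B#1 and 402, 595, 456 and 563 with siVPS4A+B#2. In NT libraries it was 268, 176, 164 and 185, and in siCTRL#1 libraries 148, 204, 115, 151 and 191. No library outside combined silencing reached the lowest of these 8, the highest being 314 in siCTRL#2. The groups of the pairs did not overlap either, and siVPS4A+B#1 was the higher. Against siCTRL#1, NFKB2 rose by 2.38 on the log2 scale with siVPS4A+B#1 (SE 0.17, limma adjusted p = 1.26e-14) and by 1.67 with siVPS4A+B#2 (SE 0.17, limma adjusted p = 1.22e-10).

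NFKBIA (NM_020529; chromosome 14 from 35870285 to 35873955, minus strand) encodes IkB alpha, the classical NF-kB-induced inhibitor that closes the negative feedback loop. It had 390, 301, 254 and 374 reads per 1000000 in siVPS4A+B#1 libraries and 361, 320.2, 258 and 373 in siVPS4A+B#2 libraries. NT libraries held 85.3, 101, 95.4 and 101 and siCTRL#1 libraries 103, 67.4, 67.2, 100.4 and 69. The 8 combined-silencing libraries stood clear of the other 29, whose highest, 117, came from siVPS4B#1. The log2 difference from siCTRL#1 was 2.00 for each pair, with an SE of 0.15 and limma adjusted p-values of 1.78e-13 and 1.17e-13. Within the 4 batches it ranged from 1.89 to 2.14 for the first pair and from 1.80 to 2.23 for the second.

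NFKBIE (NM_004556; chromosome 6 from 44225903 to 44233525, minus strand), the gene of IkB epsilon, another inhibitor known to be induced by NF-kB, rose with both pairs. Reads per 1000000 were 28.4, 22.8, 22.7 and 17.9 with siVPS4A+B#1 and 19.5, 19.4, 17.5 and 19.8 with siVPS4A+B#2. They were 4.98, 8.9, 7.83 and 7.64 in NT and 10.3, 6.25, 7.45, 8.54 and 8.04 in siCTRL#1 libraries. Combined silencing again gave 8 values above all 29 others, the nearest being 10.7 with siVPS4A#2. The log2 difference from siCTRL#1 was 1.40 (SE 0.17, adjusted p = 1.04e-08) and 1.16 (SE 0.17, adjusted p = 2.96e-07) for the first and second pair in limma.

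NFKBIB (NM_002503; chromosome 19 from 39390340 to 39399533, plus strand) encodes IkB beta and moved less. Its levels were 80.9, 88.5, 94.3 and 110.1 reads per 1000000 with siVPS4A+B#1, 59.4, 76, 75.6 and 94 with siVPS4A+B#2, 72.8, 64.3, 66 and 66.2 in NT and 32.5, 61.8, 48.4, 41 and 61.2 in siCTRL#1. The siVPS4A+B#2 libraries spanned the NT range and overlapped the highest siCTRL#1 libraries. NFKBIB was called against siCTRL#1, with log2 differences of 1.02 (SE 0.15, adjusted p = 8.48e-07) and 0.72 (SE 0.15, adjusted p = 0.000135) in limma, but not against NT, where they were 0.46 and 0.16. The siCTRL#1 level itself lay -0.56 from NT on the log2 scale (SE 0.15), just short of the 1.5-fold limit.

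TNFAIP3 (NM_006290; chromosome 6 from 138188351 to 138204451, plus strand) encodes A20, a ubiquitin-editing enzyme that shuts off signaling upstream of IKK. It had few reads, 2.14, 2.02, 2.36 and 1.75 reads per 1000000 in NT and 4.04, 4.09, 3.22, 3.04 and 6.62 in siCTRL#1. Combined silencing gave 14.2, 16.6, 11.1 and 13.2 with siVPS4A+B#1 and 8.97, 5.55, 11.8 and 9.74 with siVPS4A+B#2. Of these 8 libraries 7 were above all others, and the lowest, 5.55 in siVPS4A+B#2, lay under 1 siCTRL#1 and 1 siCTRL#2 library. The log2 difference was 1.63 (SE 0.21, adjusted p = 8.41e-08) and 1.04 (SE 0.21, adjusted p = 0.000107) against siCTRL#1 in limma, and larger against NT, at 2.26 and 1.67. Both non-targeting duplexes were themselves above NT for this gene, by 0.63 (SE 0.21, adjusted p = 0.0344) and 0.74 (SE 0.22, adjusted p = 0.00966). The siCTRL#1 call was lost without replicate 1, 2, 4 or 5, and the siCTRL#2 call without replicate 1 or 4.

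IRAK2 (NM_001570; chromosome 3 from 10206603 to 10285429, plus strand) encodes a kinase-like adaptor that carries signals from interleukin-1 and Toll-like receptors to TRAF6. NT libraries had 2.85, 2.02, 1.37 and 2.07 reads per 1000000 and siCTRL#1 libraries 2.36, 1.93, 1.35, 1.59 and 1.23. With combined silencing the values were 17, 10.3, 20.5 and 8.21 for siVPS4A+B#1 and 6.09, 9.39, 12.7 and 10.3 for siVPS4A+B#2. The lowest of these fell just under the highest siVPS4A#1 library, at 6.11, and the other 7 were above all 29. The ratio of mean levels to siCTRL#1 was 8.29 for the first pair and 5.68 for the second, and the log2 differences, which the added pseudocount draws toward 0, were 2.46 (SE 0.23, adjusted p = 3.7e-11) and 2.01 (SE 0.23, adjusted p = 3.1e-09) in limma. At this depth the siCTRL#1 values rest on 8 to 16 reads a library.

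**Figure D2:**
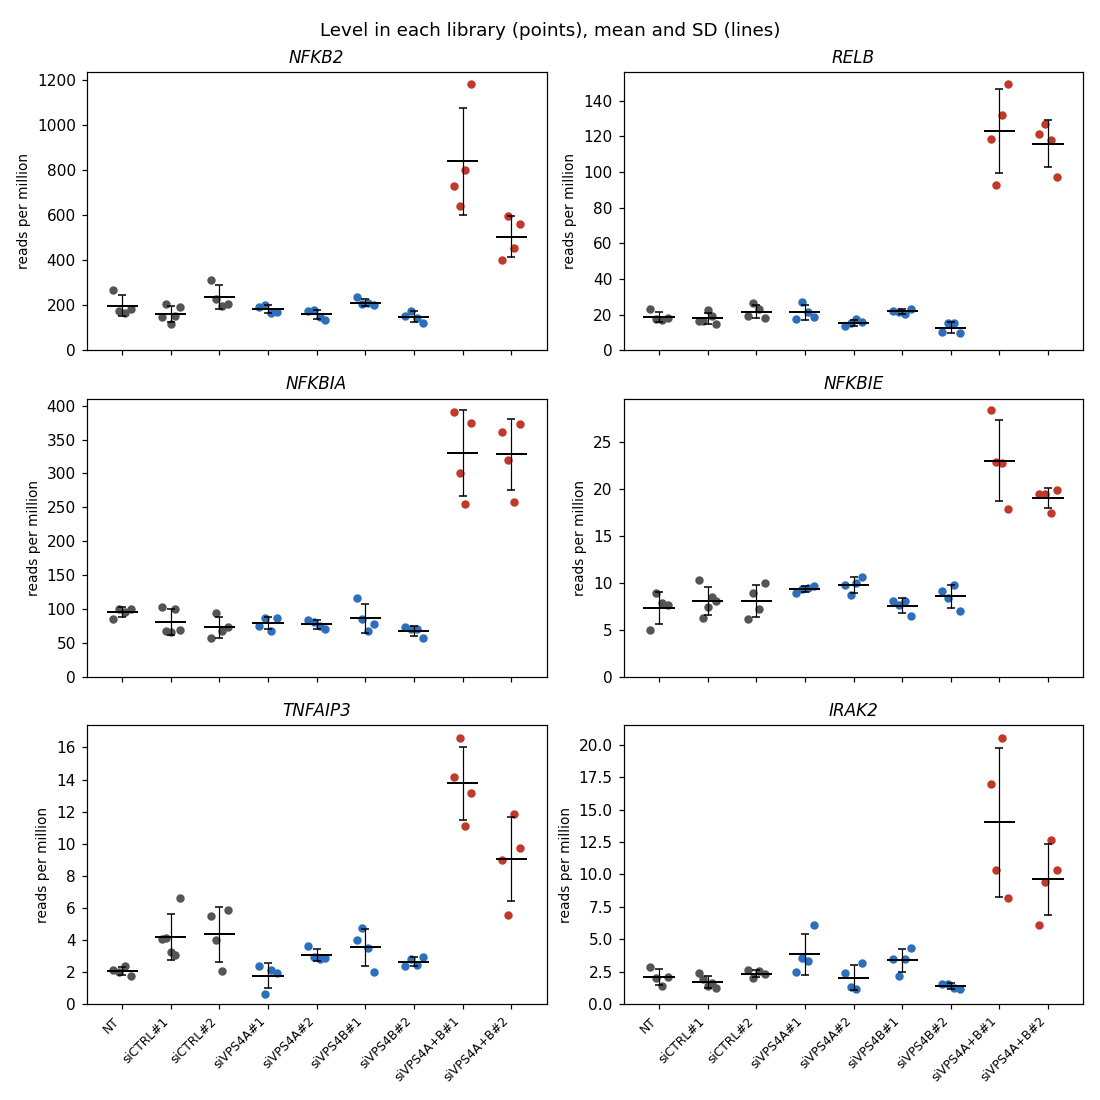
Level in TMM-normalized reads per 1000000 (vertical axis, from 0) of the 6 genes raised in all 4 comparisons, for each library (points) of the 9 conditions (horizontal axis), with the mean and SD of each condition (horizontal bar and whiskers). For RELB, NFKB2, NFKBIA and NFKBIE the 8 combined-silencing libraries (red) lie above the 29 others, and for TNFAIP3 and IRAK2 7 of the 8 do. How many genes outside the set show such a separation was not worked out.

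The remaining subunits moved less, and for each the call depended on the reference group or the pair. RELA (NM_021975; chromosome 11 from 65421070 to 65430561, minus strand) encodes the main activating subunit of the canonical dimer. It had 216, 159.7, 179 and 195 reads per 1000000 with siVPS4A+B#1, 172, 136, 250 and 189.5 with siVPS4A+B#2, 94.5, 98.6, 99.7 and 95.2 in NT and 109, 157, 129, 129 and 158 in siCTRL#1. All 8 combined-silencing libraries were above NT, and those of siVPS4A+B#1 were also above siCTRL#1, while siVPS4A+B#2 overlapped it. In limma RELA was called against NT, with log2 differences of 0.94 (SE 0.16, adjusted p = 1.41e-05) and 0.90 (SE 0.16, adjusted p = 2.03e-05), and not against siCTRL#1, at 0.48 and 0.45, under the 1.5-fold limit. Without replicate 2 both of the latter were called.

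NFKB1 (NM_003998; chromosome 4 from 103422487 to 103538459, plus strand), which encodes the precursor of the canonical partner of RELA, showed the opposite dependence. Its levels were 39.6, 46.2, 37.8 and 48.5 reads per 1000000 with siVPS4A+B#1 and 42, 40.6, 41.2 and 45.3 with siVPS4A+B#2, against 33.8, 38, 36.4 and 38.3 in NT and 24.6, 23.2, 20.5, 21.1 and 26.6 in siCTRL#1. The siVPS4A+B#2 libraries were all above NT and 1 siVPS4A+B#1 library was not, while every transfected library without combined silencing lay below every NT library. NFKB1 was called against siCTRL#1, with log2 differences of 0.92 (SE 0.12, adjusted p = 1.44e-07) and 0.90 (SE 0.12, adjusted p = 1.34e-07), and not against NT, at 0.22 (adjusted p = 0.162) and 0.20 (adjusted p = 0.196), all in limma.

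REL (NM_002908; chromosome 2 from 61108626 to 61158747, plus strand), the subunit c-Rel best known from lymphoid cells, had 27.4, 16.1, 27.6 and 31.5 reads per 1000000 with siVPS4A+B#1 and 21.3, 17.7, 22.3 and 21.9 with siVPS4A+B#2. NT libraries had 18.6, 14.3, 13.9 and 16.3 and siCTRL#1 libraries 14.5, 15.5, 11.8, 17.2 and 19.2. The ranges overlapped, since the replicate 2 library of each pair fell within the control range. REL was called with siVPS4A+B#1, at 0.64 (SE 0.18, adjusted p = 0.00397) against NT and 0.65 (SE 0.17, adjusted p = 0.00312) against siCTRL#1 in limma, and not with siVPS4A+B#2, at 0.38 (adjusted p = 0.0798) and 0.39 (adjusted p = 0.0638). The difference between the pairs was -0.26 (SE 0.18, limma adjusted p = 0.299), so the pairs were not shown to differ. The calls with siVPS4A+B#1 were lost without replicate 3, without replicate 4, with the left-out library and with scaling by library totals.

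**Figure D3:**
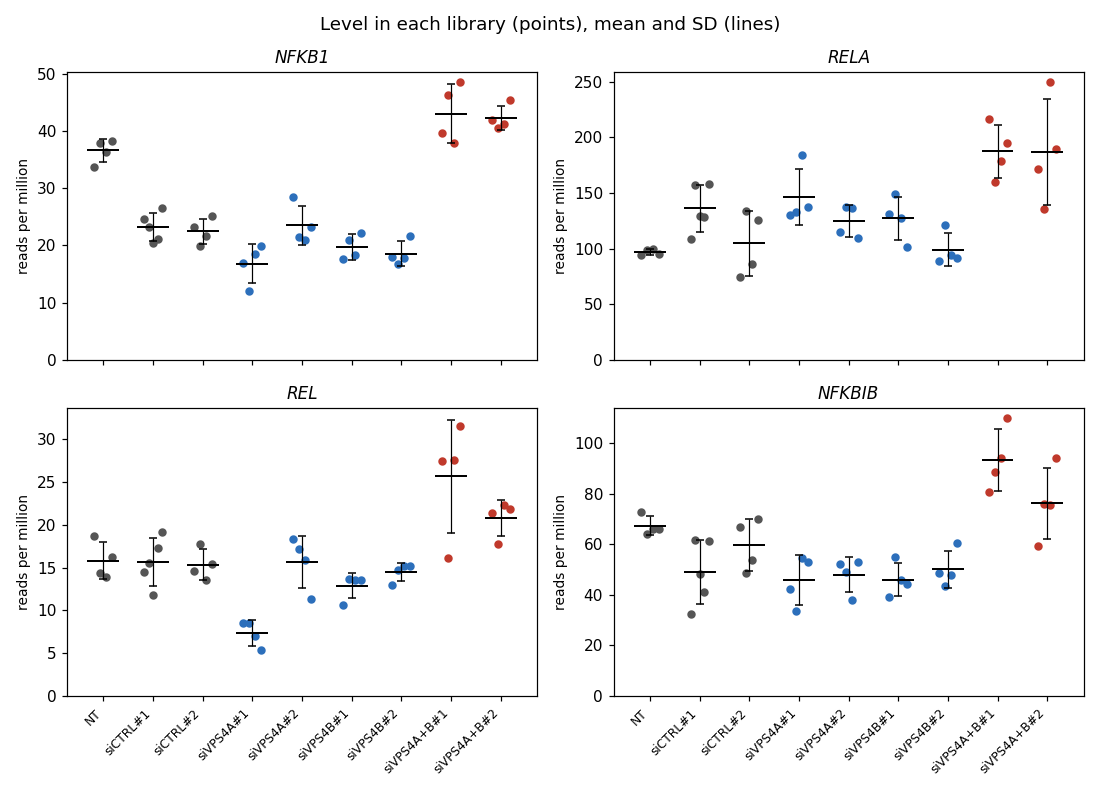
Level in TMM-normalized reads per 1000000 (vertical axis, from 0) of NFKB1, RELA, REL and NFKBIB in each library (points) of the 9 conditions (horizontal axis), with the mean and SD of each condition. NFKB1 in NT cells lies near the combined-silencing groups and above all other groups, and REL is lowest with siVPS4A#1, at 5.38 to 8.53.

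Ordered by mean level over the 9 conditions, siVPS4A+B#1 ranked first and siVPS4A+B#2 second for all 10 genes. Orders and overlaps were worked out for the members only, so how many other genes share them is not known. The libraries of the pairs overlapped for every gene but NFKB2. Between siVPS4A+B#2 and the third condition in the order there was no overlap for NFKB1, NFKB2, RELB, NFKBIA and NFKBIE, and there was for RELA, REL, NFKBIB, TNFAIP3 and IRAK2. Further down, neighbors overlapped for RELA, NFKBIB, RELB, NFKB2, NFKBIA, NFKBIE and IRAK2, and the exceptions were NT above the rest for NFKB1, siVPS4A#1 below the rest for REL, and siVPS4B#2 above NT for TNFAIP3. Compared directly, siVPS4A+B#2 and siVPS4A+B#1 differed for 2 of the 10 genes, beside 17.4% of all genes called in either direction. Both were lower with siVPS4A+B#2, NFKB2 with a log2 difference of -0.71 (SE 0.17, adjusted p = 0.00142) and TNFAIP3 with one of -0.59 (SE 0.22, adjusted p = 0.0385) in limma. The TNFAIP3 call was lost in 11 of 14 alternative settings, and the difference was -0.31 without replicate 2. The NFKB2 call was lost with the left-out library.

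Single silencing of VPS4A or VPS4B raised none of the 10 genes in all 4 comparisons of its duplexes with NT and siCTRL#1. The share of all genes raised by that rule was not worked out, so this count does not set the members apart from other genes. Against siCTRL#1 in limma, siVPS4A#2 changed 0 members (0.0871% of all genes were called) and siVPS4B#2 changed 0 (7.57%), with 0 and 2 at an unadjusted p under 0.05 and 0 calls by edgeR and by DESeq2 in either comparison. The 2 with siVPS4B#2 were RELB at -0.52 (SE 0.15, limma adjusted p = 0.0184) and RELA at -0.44 (SE 0.16, limma adjusted p = 0.0588). RELB was thus lower after adjustment and went without a call only by the 1.5-fold limit. From NT it lay -0.55 with siVPS4B#2 (SE 0.16, limma adjusted p = 0.00816), also under that limit. Again against siCTRL#1, siVPS4B#1 changed 1 member (12.9%) and siVPS4A#1 changed 3 (22.0%). Against NT, siVPS4A#1 changed 3 members (25.0% of all genes), siVPS4A#2 changed 1 (8.15%), siVPS4B#1 changed 1 (22.3%) and siVPS4B#2 changed 1 (15.5%).

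The member common to the comparisons with NT was NFKB1, which was lower with all 4 single duplexes. Its level was 16.9, 12, 18.5 and 19.9 reads per 1000000 with siVPS4A#1, 28.4, 21.4, 21 and 23.3 with siVPS4A#2, 17.5, 21, 18.3 and 22.2 with siVPS4B#1 and 18, 16.8, 17.9 and 21.7 with siVPS4B#2. The log2 differences from NT were -1.18, -0.63, -0.86 and -0.95 in that order, and the siVPS4A#2 call was lost without replicate 2 or 3. NFKB1 was also lower with the non-targeting duplexes, with log2 differences of -0.70 (SE 0.12, adjusted p = 9.07e-05) for siCTRL#1 and -0.68 (SE 0.13, adjusted p = 5.7e-05) for siCTRL#2 in limma, and no single duplex was called against siCTRL#1. Between the controls, siCTRL#1 against NT called 2 members, NFKB1 and TNFAIP3, beside 9.05% of all genes. The same genes were called in siCTRL#2 against NT, beside 16.6%, and 0 in siCTRL#2 against siCTRL#1, beside 16.8%, with 3 at an unadjusted p under 0.05 in limma and 0 calls by edgeR or DESeq2. Of these 3, NFKB2 lay 0.56 higher with siCTRL#2 than with siCTRL#1 (SE 0.17, limma adjusted p = 0.00903), just under the 1.5-fold limit. It was higher in 4 of 4 batches and called in 4 of 14 alternatives, so the non-targeting duplexes were not alike for this gene.

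REL was lower with siVPS4A#1, where its 4 libraries had 8.53, 8.52, 6.97 and 5.38 reads per 1000000, below all other 33 libraries. The log2 difference was -1.02 (SE 0.19, adjusted p = 2.71e-05) from NT and -1.01 (SE 0.17, adjusted p = 7.81e-06) from siCTRL#1 in limma. With siVPS4A#2, the other duplex to the same target, it was -0.02 and -0.01, with libraries of 18.3, 17.2, 15.9 and 11.3. The difference between these duplexes was not tested. Cells given siVPS4A+B#2, which contains siVPS4A#1, had 17.7 to 22.3.

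TNFAIP3 was also lower with siVPS4A#1, at 2.35, 0.627, 2.1 and 1.96 reads per 1000000, which rest on as few as 5 reads. It was -0.95 from siCTRL#1 on the log2 scale (SE 0.21, limma adjusted p = 0.000347), and -0.32 from NT, which was not called. IRAK2 was higher against siCTRL#1 with siVPS4A#1 (2.45, 3.51, 3.32 and 6.11 reads per 1000000) by 0.77 (SE 0.23, adjusted p = 0.00642) and with siVPS4B#1 (3.51, 2.14, 3.46 and 4.33) by 0.73 (SE 0.23, adjusted p = 0.0175) in limma. Neither was called against NT, at 0.53 and 0.50. The siVPS4A#1 call was lost without replicate 5, and the siVPS4B#1 call without replicate 3 or replicate 4. NFKBIB was -0.65 from NT with siVPS4A#1 (SE 0.16, limma adjusted p = 0.00134), a call lost without replicate 3.

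With the library labelled siVPS4A#1 replicate 2 included in the siVPS4A#1 group, REL lay -0.60 from NT and was no longer called, and -0.63 from siCTRL#1, still called. TNFAIP3 then lay -0.41 from siCTRL#1 and NFKBIB -0.39 from NT, both without a call, while NFKB1 at -0.78 from NT and IRAK2 at 0.65 from siCTRL#1 were called. In that setting RELB was called higher at 0.87 and 0.83 against NT and siCTRL#1, NFKB2 at 0.73 against siCTRL#1 and RELA at 0.64 against NT. The RELA call did not depend on that library. In the main fit RELA lay 0.57 above NT with siVPS4A#1 (SE 0.17, limma adjusted p = 0.00745), just under the 1.5-fold limit. It was called in 9 of 14 alternatives, among them edgeR and DESeq2, which leave that library out.

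Whether the pairs did more than their single duplexes was tested as the interaction, the log2 difference of the pair from siCTRL#1 minus the sum of those of its single duplexes. It was called for 9 of the 10 genes in the first pair, where 3.82% of all genes were called with a positive interaction, and for 10 of 10 in the second, where 9.64% were. RELB had the largest values, 2.66 (SE 0.22, adjusted p = 1.26e-11) and 2.85 (SE 0.22, adjusted p = 1.12e-12) in limma. For NFKBIA they were 1.97 (SE 0.22, adjusted p = 3.55e-08) and 2.24 (SE 0.22, adjusted p = 5.84e-10), for TNFAIP3 1.96 (SE 0.31, adjusted p = 2.39e-05) and 2.38 (SE 0.30, adjusted p = 2.24e-07), and for NFKB2 1.92 (SE 0.24, adjusted p = 4.18e-07) and 1.53 (SE 0.24, adjusted p = 7.61e-06). The gene without a call was RELA in the first pair, at 0.67 (SE 0.23, adjusted p = 0.0786) against 0.77 (SE 0.23, adjusted p = 0.0135) in the second. Without replicate 3 the first pair had 6 calls, with REL, NFKBIB and IRAK2 lost, and with the left-out library each pair had 8. In that last setting NFKB2 in the second pair fell to 1.03 and lost its call, as did NFKBIB in the second pair and REL in the first. RELA in the second pair lost its call without replicate 3 or 5. NFKBIB in the second pair, at 0.68 (SE 0.21, adjusted p = 0.0211), lost its call in 7 alternatives, among them without replicate 2, 3 or 5 and without the batch term. REL in the first pair, at 0.92 (SE 0.25, adjusted p = 0.0178), lost it in 5, among them without replicate 1, 3 or 4.

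The sums of the single effects were above 0 in both pairs for IRAK2, NFKB2, NFKBIE and NFKBIB. IRAK2 had a sum of 0.91 and 0.65, beside 2.46 and 2.01 for the pairs, and NFKB2 a sum of 0.46 and 0.13 beside 2.38 and 1.67. NFKBIB had sums of 0.09 and 0.05, and NFKBIE had a sum of 0.19 and 0.28 beside 1.40 and 1.16. In the second pair the sums of the other 6 genes were below 0, furthest for REL, TNFAIP3 and NFKB1, at -1.11, -1.34 and -0.73, so that part of their interaction of 1.5, 2.38 and 1.63 is the distance from those sums to 0. Both interactions use the siCTRL#1 libraries.

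**Figure D4:**
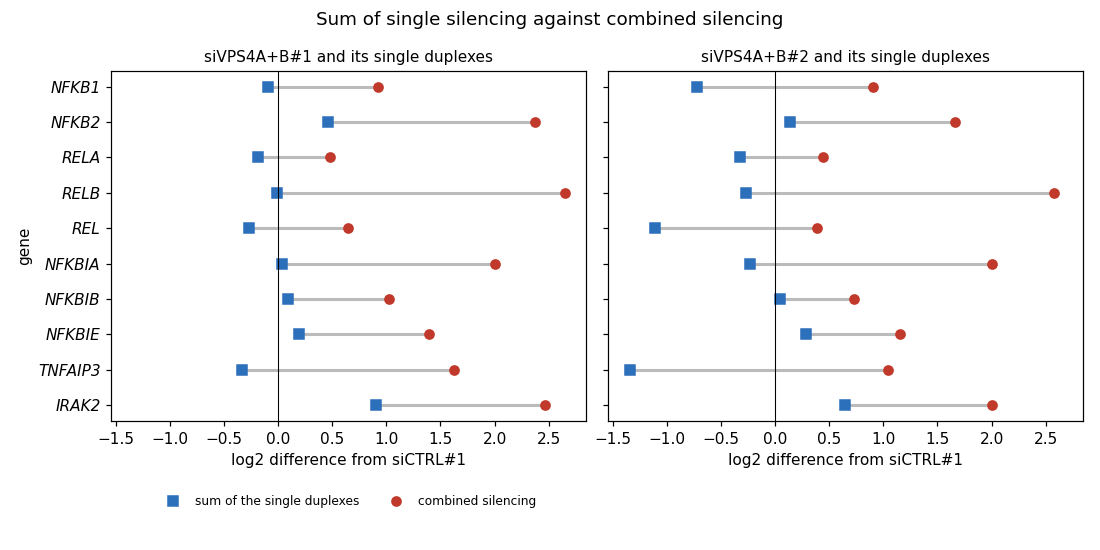
Log2 difference from siCTRL#1 (horizontal axis) of each of the 10 genes (vertical axis) for combined silencing (red circles) and for the sum of the single duplexes of that pair (blue squares), with the first pair at left and the second at right. The gray line between them is the interaction, longest for RELB in both panels (2.66 and 2.85).

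Set against each of their own single duplexes, the pairs were higher for nearly all members. With siVPS4A+B#1, 10 members were higher than with siVPS4A#2, where 11.4% of all genes were, and 9 than with siVPS4B#1, where 4.85% were. With siVPS4A+B#2, 9 were higher than with siVPS4A#1, beside 8.55%, and 9 than with siVPS4B#2, beside 11.8%. With the left-out library in the siVPS4A#1 group, 8 members were higher than with siVPS4A#1, since NFKBIB went from 0.81 to 0.57 and lost its call, and NFKB2 went from 1.45 to 0.89, still called. For RELB the log2 differences ran from 2.33 to 3.10. The members without a call were RELA against siVPS4B#1 and siVPS4A#1, at 0.56 and 0.33, and REL against siVPS4B#2, at 0.49 (limma adjusted p = 0.0255). The RELA call against siVPS4A#2, at 0.59, was lost in several settings, among them without replicate 1 or 4. The REL call against siVPS4A#2, at 0.66, was lost without replicate 4 and with scaling by library totals, and the NFKBIB call against siVPS4B#2, at 0.59, without replicate 2, 3 or 4 and with scaling by library totals.

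The other genes of the pathway were taken as 5 lists from which the members were left out. The counts of genes higher in all 4 comparisons stand beside 3.96% of all genes. In the list of IKK and upstream kinases, 2 of 12 measured genes were higher in all 4 comparisons of combined silencing and none was lower, with a median log2 difference of 0.22 over the list beside -0.03 over all genes. MAP3K14, which encodes the NIK kinase of the non-canonical pathway, had a mean of 11.1 reads per 1000000 in NT, 7.38 in siCTRL#1, 44.9 in siVPS4A+B#1 and 30.1 in siVPS4A+B#2, a mean log2 difference of 1.97. IKBKG, the regulatory subunit of IKK, had 1.03, at means of 0.214 in NT and 2.29 in siVPS4A+B#2, and at most 18 reads in any library. The catalytic IKK genes CHUK and IKBKB, named after their values were seen, were not called, with mean log2 differences of 0.07 and 0.01.

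Of the receptor-proximal adaptors, 3 of 15 measured genes were higher in all 4 comparisons and none was lower, with a median of 0.30. BIRC3 and BIRC2 encode the cellular inhibitors of apoptosis that take part in the turnover of NIK, and SQSTM1 encodes the autophagy receptor p62. BIRC3 rose from 8.88 in siCTRL#1 to 272 and 264 reads per 1000000 with the pairs, a mean log2 difference of 5.33. SQSTM1 had a mean log2 difference of 3.32 and BIRC2 one of 1.16. Of the linear ubiquitin and A20-related regulators, 1 of 13 was higher in all 4, TNIP1, an A20-binding inhibitor, at 1.68, with a list median of 0.40. None of 10 atypical IkB genes and nuclear cofactors was called in all 4 in either direction, with a list median of 0.13.

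Of 30 classical NF-kB targets listed, 22 were measured. Of these, 11 were higher in all 4 comparisons, beside 3.96% of all genes, and none was lower, with a median log2 difference of 0.82. Some of the 11 were near the floor in controls, with NT means of 0 for TNF, 0.22 for TNFRSF9 and 0.713 for CXCL3. The 5 with the largest mean were CXCL8 (5.32), TNFRSF9 (4.71), CXCL1 (2.05), PLAUR (2.04) and CXCL2 (1.99), which encode neutrophil chemokines, the costimulatory receptor 4-1BB and the urokinase receptor. CXCL8 had 2.13 and 3.34 reads per 1000000 in NT and siCTRL#1 and 244 and 88.6 with the pairs. Targets that were not called in all 4, named after their values were seen, included ICAM1 at -0.02, SOD2 at -0.39 and BCL2L1 at -0.45. The lists were drawn up with earlier results of these data known.

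**Figure D5:**
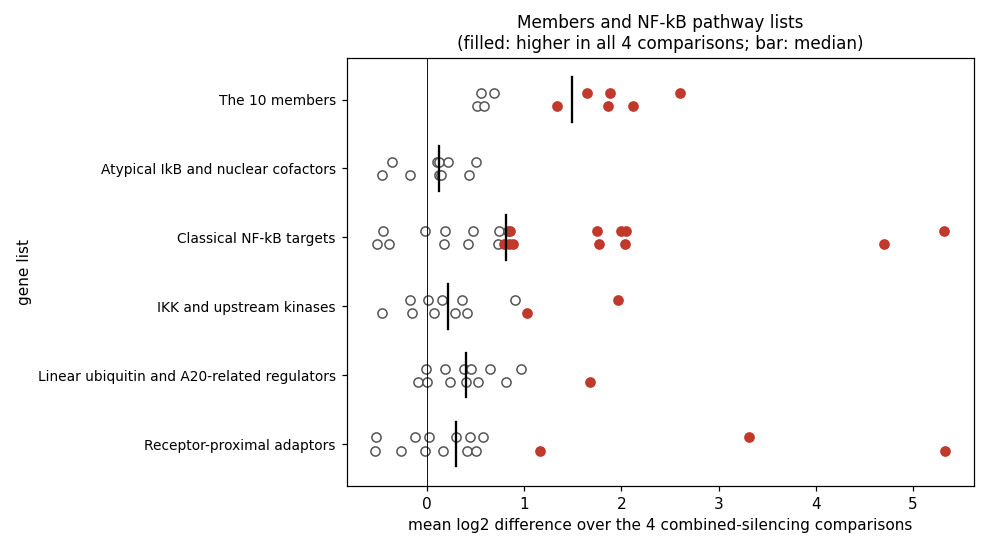
Mean log2 difference over the 4 comparisons of combined silencing with NT and siCTRL#1 (horizontal axis) for each gene (circles) of the 10 members and of 5 pathway lists (vertical axis), filled where the gene was higher in all 4, with the median of each list as a bar. Filled circles make up 6 of the 10 members, 11 of 22 classical targets and 0 to 3 genes of each other list, beside 3.96% of all genes.

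Of the 12474 genes with a symbol, those with the profile nearest to each member were found by the root mean square difference over the 8 mean log2 differences from siCTRL#1. These differences all rest on the same siCTRL#1 libraries. Nearest to RELB were RASD1 (0.29), WFDC3 (0.37) and NFKBIA (0.38), with that difference in parentheses. Nearest to NFKBIA were KLF6 (0.18), GCLC (0.26) and CXCL2 (0.31), and to NFKB2 KLF6 (0.24), LAMB3 (0.26) and IRAK2 (0.27). The profile of IRAK2 was nearest to LAMB3 (0.21), NFKB2 (0.27) and ZSWIM4 (0.28), that of TNFAIP3 to SRXN1 (0.27), PDLIM3 (0.31) and NUAK2 (0.32), and that of NFKBIE to MSANTD3 (0.14), ZC3H12A (0.14) and KPNA4 (0.15). Members were thus among the 3 nearest genes of RELB, NFKB2 and IRAK2. Of the other members, NFKB1 was nearest to LRP8 (0.14), GAL (0.17) and CHD5 (0.19), RELA to PPP1CB (0.14), EXT1 (0.14) and CLTB (0.16), REL to TRAF3 (0.19), VEGFA (0.21) and RHEB (0.21), and NFKBIB to MGST1 (0.15), JMJD1C (0.18) and UCHL3 (0.18).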

How the data were processed

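RNA of HCT116 cells was measured in 38 libraries of 9 conditions. The authors sequenced an Ion AmpliSeq transcriptome panel on an Ion Proton instrument. Their methods and processing notes name hg19, the Torrent Mapping Alignment Program, HTSeq-count 0.6.0 for counting and DESeq2 1.18.1. In the deposited tables each value is a signal: a gene's reads divided by all reads of its library. Low values are whole multiples of the share of 1 read, so reads were recovered: 48.3% of values were printed finely enough to judge, and 100% of these were within 0.1 read of a whole number. A count of 3 reads was at most 0.589 reads per 1000000, and such limits cover counting error only.

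Main values come from limma 3.58.1 with an intensity trend on log2(TMM-scaled reads per 1000000 + 1), which understates changes of low genes, over 12627 genes and 37 libraries, with condition and batch as terms and Benjamini-Hochberg adjustment. Calls required a change of 1.5-fold or more with an adjusted p under 0.05. The labels tie replicate numbers to lettered batches, which pair the libraries. Residual profiles had a mean Pearson r across genes of 0.159 for 137 same-batch pairs and -0.075 for 529 others. By batch the mean was 0.253 in a, 0.063 in b, 0.281 in c and 0.014 in d, and 0.282 in the 1 pair of e. Batch e held only siCTRL#1 and siVPS4A#1. P-values measure the spread between these replicates of 1 cell line.

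Named were the 10 members, up to 5 genes per list called in all 4 comparisons in each direction by mean log2 difference, and the 3 nearest profiles per member. The members and lists were chosen with earlier results of these data known. Alternatives were edgeR 4.0.16 and DESeq2 1.42.0 on the recovered reads (542 and 571 genes higher in all 4 comparisons, against 500 in limma), other scalings, a pseudocount of 0.1, a filter on low counts, no replicate block, fits without each replicate, with the left-out library, on the compared conditions only, and with siCTRL#2 in place of siCTRL#1. The limma test of siVPS4A+B#1 against siCTRL#1 was checked on simulated reads. The simulation held no batch effect and changed only genes with many reads, so it does not cover genes with few, such as TNFAIP3 and IRAK2. Symbols of 12474 genes came from the RefSeq tables, and 153 genes had none. Coordinates are those of the GENCODE annotation on GRCh37. The software was R 4.3.3, Python 3.11.15, numpy 2.4.6, pandas 2.3.3 and matplotlib 3.10.9.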

Additional observations from a re-analysis of the deposited data

Results flagged for a closer look

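The effect of silencing 1 paralog differed with and without the other, by the interaction test in limma. The interaction on the log2 scale was for the first pair NFKB1 1.01, NFKB2 1.92, RELB 2.66, REL 0.92, NFKBIA 1.97, NFKBIB 0.93, NFKBIE 1.21, TNFAIP3 1.96 and IRAK2 1.55. For the second pair it was NFKB1 1.63, NFKB2 1.53, RELB 2.85, REL 1.5, NFKBIA 2.24, NFKBIB 0.68, NFKBIE 0.87, TNFAIP3 2.38 and IRAK2 1.36, and RELA had 0.77.

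The library labelled siVPS4A#1 replicate 2, which entered none of the comparisons as reported, had levels above the highest NT, siCTRL#1 or siCTRL#2 library for 9 members. In reads per 1000000 these were NFKB1 with 53.41, NFKB2 with 1105, RELA with 186.1, RELB with 165.1, REL with 27.51, NFKBIA with 372.2, NFKBIB with 95.49, NFKBIE with 12.95 and TNFAIP3 with 14.57. The NFKBIE and TNFAIP3 values rest on 8 and 9 reads. IRAK2 had 1 read there, which its depth does not distinguish from the control levels. How many of all genes were above the highest control library in it was not worked out, so the count does not set the members apart.

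A library stood apart from the others of its group in 4 of the 108 groups of 4 or 5 values examined, where chance gives about 5.4. These were RELA at 184.4 reads per 1000000 in siVPS4A#1 replicate 4, REL at 10.68 in siVPS4B#1 replicate 1, TNFAIP3 at 3.589 in siVPS4A#2 replicate 1 and VPS4A at 3.518 in siVPS4A#1 replicate 1.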

How the results depend on the processing

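In every alternative run, the 6 members raised in all 4 comparisons of combined silencing numbered 6 or 7, none was lowered, and single silencing of VPS4A or VPS4B raised none. In limma 525 of all 12627 genes were lower in all 4, and the share for single silencing was not worked out. Counts of 7 came without replicate 2 and with siCTRL#2 in place of siCTRL#1. The interaction was called for 6 to 10 members in the first pair and 8 to 10 in the second. No called difference changed sign. Differences that were not called did, among them NFKB2, NFKBIA and TNFAIP3 in siVPS4A#1 against NT, which went from -0.10, -0.25 and -0.32 to 0.48, 0.25 and 0.28 with the left-out library.

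Counts resting on 1 to 3 members moved. With the left-out library included, the count of members called was 0 for siVPS4A#2 against NT, 1 for siCTRL#1 and 1 for siCTRL#2 against NT, and 0 between the pairs. Between the pairs it was 1 of 2 with DESeq2 size factors, library totals, a pseudocount of 0.1, the filter on low counts, the compared conditions only, edgeR and DESeq2. Without the replicate block it was also 1, and the block moved no other count by over 1.5 times. With edgeR and DESeq2, siVPS4B#1 against NT called 2. On the compared conditions only, siCTRL#1 against NT called 1 and siCTRL#2 against siCTRL#1 called 1. Leaving out each replicate in turn gave 3 to 5 calls for siVPS4A#1 against NT, 0 to 1 for siVPS4A#2 against NT, 1 to 2 for siVPS4B#1 and for siVPS4B#2 against NT, 0 to 1 for siVPS4B#1 and for siVPS4B#2 against siCTRL#1, 1 to 3 for siCTRL#1 against NT, 1 to 2 for siCTRL#2 against NT, 0 to 2 for siCTRL#2 against siCTRL#1 and 1 to 3 between the pairs. The causes were not tested.

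Depth limits IRAK2 and TNFAIP3 most, with as few as 5 reads in a library.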
